A study of Mus musculus with 24 samples.

Results

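The neuropeptide genes Npy, Sst, Vip, Cck, Tac1, Penk, Pdyn, Adcyap1, Nts and Gal were examined in the brains of 24 mice. They were chosen by gene name, as peptides of the cerebral cortex and limbic forebrain, and the deposited expression table holds 1 row for each of them, or 10 of 54532 genes. All 10 had reads in every mouse and passed the filter on low values. The mice were male wild-type (WT C57Bl6) animals of 8 to 12 weeks, with 6 mice in each of 4 groups. Vehicle mice carried a subcutaneous minipump with 0.9% saline and the angiotensin II mice a pump delivering 0.7 mg/kg/day of angiotensin II, a hormone that raises blood pressure, for 14 days in both cases. The groups called vehicle + cells and angiotensin II + cells below had the same infusions and also received 1000000 human amnion epithelial cells through the tail vein, where the other mice were injected with saline. These cells come from the amnion, a layer of the sac around the foetus, and were isolated from term placentae. Whole brain hemispheres were used, so cortex, hippocampus, striatum and deeper nuclei were read together. In such bulk tissue, fewer cells of a type and less RNA per cell cannot be told apart.

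Neuropeptides are cut from larger precursor proteins, stored in dense-core vesicles and released to act on G protein-coupled receptors, more slowly and over longer distances than the fast transmitters. In the cortex and hippocampus, Sst (somatostatin), Npy (neuropeptide Y) and Vip (vasoactive intestinal peptide) are made by GABAergic interneurons, and Cck (cholecystokinin) by interneurons and by excitatory neurons. In the striatum, Penk (proenkephalin) is known from the indirect pathway, and Pdyn (prodynorphin) and Tac1 (substance P and neurokinin A) from the direct pathway. Adcyap1 (PACAP), Nts (neurotensin) and Gal (galanin) are known from smaller populations of cortex, amygdala and hypothalamus.

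Several neuropeptide genes are textbook targets of the transcription factor CREB, which binds the cAMP response element, so the sequences before the gene starts were read from the RefSeq promoter table (GRCm38.p6, windows of 250 bases before and 50 bases from each start). A window was found for 9 of the 10 genes, in 11 windows, and Penk had none. The palindrome TGACGTCA was present in 1 gene, Sst, and in 1.79% of all 32851 windows. The shorter CGTCA, searched on both strands and contained in the palindrome, was present in 7 of the 9 genes (Sst, Cck, Vip, Tac1, Adcyap1, Nts and Gal) and in 20.8% of all windows. The first is a count per gene, where some genes have more than 1 window, and the second a share per window, so they are unlike measures. In Gal the match was at position 20 after the start. Neither was found in the windows of Npy and Pdyn. The following stretches, 5′ to 3′ on the strand of each gene, are shown because these genes differ in the motif. Capitals mark CGTCA or its reverse complement, and positions count back from the base before the start.
Sst, positions -60 to -31 (chr16:23890875-23890904, minus strand), with the palindrome beginning at -48: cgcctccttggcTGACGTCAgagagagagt
Cck, positions -120 to -1 (chr9:121495695-121495814, minus strand), with the short motif at -47: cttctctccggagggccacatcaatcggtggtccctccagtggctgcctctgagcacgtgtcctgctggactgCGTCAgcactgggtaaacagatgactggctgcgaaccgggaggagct
Vip, positions -120 to -1 (chr10:5639098-5639217, plus strand), with the short motif at -79: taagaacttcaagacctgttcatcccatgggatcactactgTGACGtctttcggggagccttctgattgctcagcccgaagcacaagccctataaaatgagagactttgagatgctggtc
Npy, positions -120 to -1 (chr6:49822590-49822709, plus strand), with neither motif: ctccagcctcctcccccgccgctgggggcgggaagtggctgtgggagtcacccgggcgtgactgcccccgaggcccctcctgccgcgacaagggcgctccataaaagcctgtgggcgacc
A shorter stretch is given for Sst because its start in RefSeq lies inside the gene as the deposited table bounds it (chr16:23889573-23890958). The stretch shown, with the palindrome, therefore also lies inside those bounds. A match of letters is a description of the sequence, and binding was not measured.

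Expression was deposited as FPKM, in which a gene's fragments are scaled to its length and to the size of the library, so levels can be compared between genes. Sst was the most abundant of the 10, at a mean of 266 FPKM over the 24 mice (chr16:23889573-23890958), which ranked 92 among all genes. Cck followed at 201 FPKM (chr9:121489824-121495694), Penk at 145 FPKM (chr4:4133531-4138819) and Npy at 82.1 FPKM (chr6:49822710-49829507). These 4 genes thus stood well above the other 6, and Npy was above Tac1 in 24 of 24 mice. It was 4.34 to 5.94 times Tac1 in the 18 libraries outside the set of high total FPKM described below.
The middle of the order was held by Tac1 at 13.9 FPKM (chr6:7554879-7565834) and Pdyn at 10.9 FPKM (chr2:129686565-129699844), followed by Adcyap1 at 7.73 FPKM (chr17:93199422-93205485). The lowest means were 6.62 FPKM for Nts (chr10:102481756-102490486), 5.70 FPKM for Vip (chr10:5639218-5647617) and 4.25 FPKM for Gal (chr19:3409919-3414472). Each gene from Sst down to Pdyn was above the next in 24 of 24 mice, Pdyn above Adcyap1 included, so that order did not depend on the mouse. Neighbours lower down overlapped: Adcyap1 was above Nts in 19 of 24 mice, Nts above Vip in 17 and Vip above Gal in 21.
The coordinates are those of GRCm38 in the deposited table, and 8 of the 10 genes have the same bounds in GENCODE M21 (all but Adcyap1 and Gal). Penk overlaps the opposite-strand gene A830012C17Rik, and whether strand was used in counting is not given in the sources used here, so reads of the pair may be mixed. Depth was 16536449 to 25308700 fragments per mouse, recovered from the FPKM steps. A mouse had 2731 to 7272 reads on Sst, 123 to 258 on Nts and 34 to 100 on Gal, so counting alone gives Gal a coefficient of variation of 14.02%.

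One feature of the libraries bears on every comparison of these genes. In 6 libraries (2 of vehicle, 1 of angiotensin II, 1 of vehicle + cells and 2 of angiotensin II + cells) the FPKM of all genes added up to 338334.5 to 348596.7, against 277115.9 to 298300.6 in the other 18, and the first principal component (28.4% of variance) separated the sets. The 6 were replicates 5 and 6 of vehicle and of angiotensin II + cells, replicate 5 of angiotensin II and replicate 6 of vehicle + cells. The labels name no such sets, so all comparisons were also fitted with membership of these sets added as a covariate, called the library-set term below. In angiotensin II replicate 4, pituitary transcripts were high (Gh 1115 FPKM, against a median of 1.37 FPKM over all mice), and Adcyap1 was the highest of all 24 mice there (9.09 FPKM), Nts the highest of its group (7.38 FPKM) and Penk the lowest of all 24 (120 FPKM). Its Gal level was 3.99 FPKM, and leaving this mouse out brought none of the 10 genes past the threshold in any contrast.

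Between the sets of libraries, the abundant peptide genes differed more than between any treatment groups. In the 6 libraries Sst ran from 349 to 410 FPKM, with a median of 372, and in the 18 it ran from 206 to 270.0 FPKM, with a median of 233. The corresponding levels of Cck were 266 to 306 FPKM (median 288) and 155 to 193 FPKM (median 169.3). For Npy they were 111 to 119 FPKM (median 114) and 61.6 to 87.3 FPKM (median 70.9). Penk, at 163 to 197 FPKM (median 179) against 120 to 152 FPKM (median 129), was the last of the 4 genes for which every one of the 6 libraries lay above every one of the 18. The share of all genes that separate between the sets was not computed, and the separation was not particular to these peptides. Pcsk1n also separated (546 to 669 FPKM in the 6, 322 to 402 FPKM in the 18). Cadps2 did so in the other direction (4.59 to 5.55 FPKM in the 6, 7.99 to 9.94 FPKM in the 18).
With the group means removed, the difference in log2(FPKM + 0.1) between the sets was 0.74 for Cck, 0.72 for Sst, 0.68 for Npy, 0.45 for Penk and 0.43 for Gal. It was smaller for Nts (0.24) and Tac1 (0.17), and had the opposite sign for Adcyap1 (-0.20), Vip (-0.08) and Pdyn (-0.07), and for these 6 genes, Gal included, the sets overlapped. The sets were defined by total FPKM and not by treatment, so these differences are given as a description with no test.
Across genes, the same difference fell with gene length. Among 13649 genes with a mean of at least 1 FPKM, its median was 0.43 in the shortest of 10 equal bins (27 to 1057 bases) and -0.53 in the longest (9540 to 41324 bases), and its correlation with log2 length was -0.22. Over the 10 peptide genes that correlation was -0.78, as a description over genes that share the same libraries. Npy, Gal and Sst are among the shortest genes, at 566, 712 and 721 bases, and Tac1 and Vip the longest of the 10, at 3399 and 3402 bases. The difference of 7 of the 10 genes lay between the quartiles of the genes in the same length bin. Sst and Cck lay above the upper quartile, and Adcyap1, at 2088 bases, lay below the quartiles of its bin (0.01 to 0.52). What produced the sets was not tested.

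**Figure D1:**
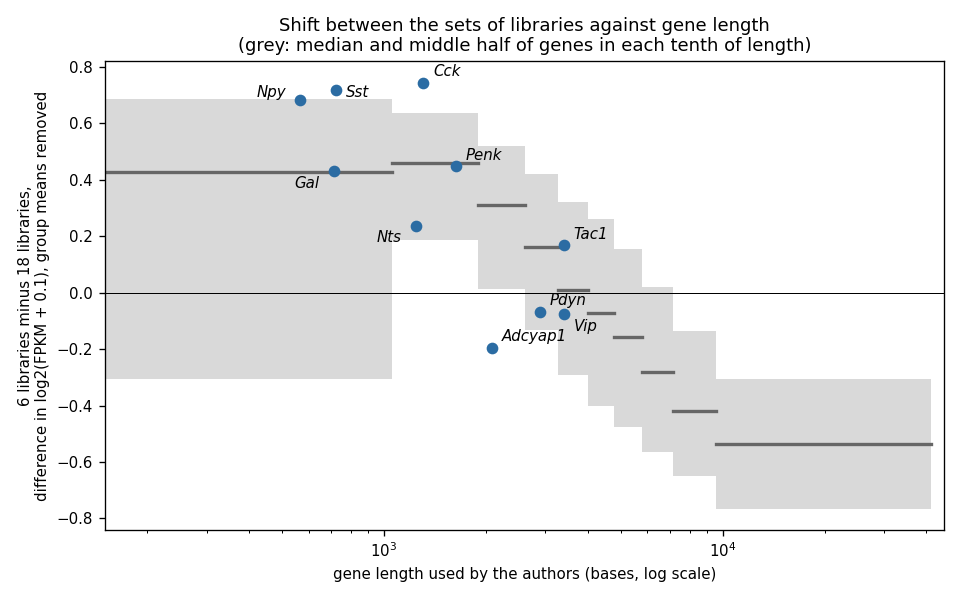
Difference in log2(FPKM + 0.1) between the 6 libraries of high total FPKM and the other 18, with group means removed (vertical axis), against gene length in bases (log scale, horizontal axis). Grey bars and bands give the median and the quartiles of the genes in each of 10 length bins and blue points the 10 peptide genes, of which Cck, Sst and Npy sit highest, at 0.74, 0.72 and 0.68, and Adcyap1 lowest, at -0.20.

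The first comparison asked whether angiotensin II alone altered the peptide genes. None of the 10 did so beyond the spread between mice. With the 4 groups in 1 limma fit, 0 of 10 passed an adjusted p-value of 0.05 (0% of the 27286 genes tested passed it) and 0 of 10 passed an unadjusted p-value of 0.05, against 2.21% of all genes. The 10 differences ran from -0.16 (Nts) to 0.08 (Adcyap1) on the log2(FPKM + 0.1) scale, with a median of -0.06, where the median of all genes was 0.02. Fold changes on this scale understate the change of genes with low expression.
Sst in vehicle mice had a lowest level of 210 FPKM, a median of 236 and a highest of 396. With angiotensin II the lowest was 210 FPKM, the median 238 and the highest 364. The groups overlapped along their whole range, and the highest values in both came from the 6 libraries described above. The log2 difference in Sst was -0.12 (standard error 0.19, 95% confidence interval -0.53 to 0.28, limma, adjusted p = 0.994).
With the library-set term, the difference in Sst became -0.003 with an interval of -0.13 to 0.12, which corresponds to 8.45% lower to 8.83% higher. In that fit 0 of 10 genes passed the adjusted threshold (0% of all genes) and 0 of 10 the unadjusted one (3.46% of all genes). For Cck the levels were 155 to 293 FPKM with vehicle (median 174) and 157 to 277 FPKM with angiotensin II (median 184). Its difference moved from -0.09 without the term to 0.03 with it (interval -0.09 to 0.15, limma).
Nts had the lowest p-value of the 10 in this comparison. It measured 5.91 to 9.001 FPKM with vehicle (median 6.66) and 5.32 to 7.38 FPKM with angiotensin II (median 6.28). The 2 highest vehicle mice were both among the 6 libraries, and the log2 difference was -0.16 (standard error 0.11, limma, unadjusted p = 0.165). For Nts, exact permutation of 6 against 6 mice yielded p = 0.193 (two-sided), the lowest of the 10 genes.
The remaining peptide genes behaved alike in that their groups overlapped. Npy averaged 85.3 ± 21.8 FPKM in vehicle mice, against 81.8 ± 16.8 FPKM in those infused with angiotensin II (SD, n = 6 each). The striatal peptides Penk, Tac1 and Pdyn differed by -0.08, 0.04 and 0.03 on the log2 scale, and Vip by -0.01. For Adcyap1, 5 of 6 mice with angiotensin II were above the vehicle mean, with 7.94 ± 0.66 FPKM against 7.48 ± 0.54 FPKM (SD, n = 6 each, exact permutation test, two-sided p = 0.206).

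**Figure D2:**
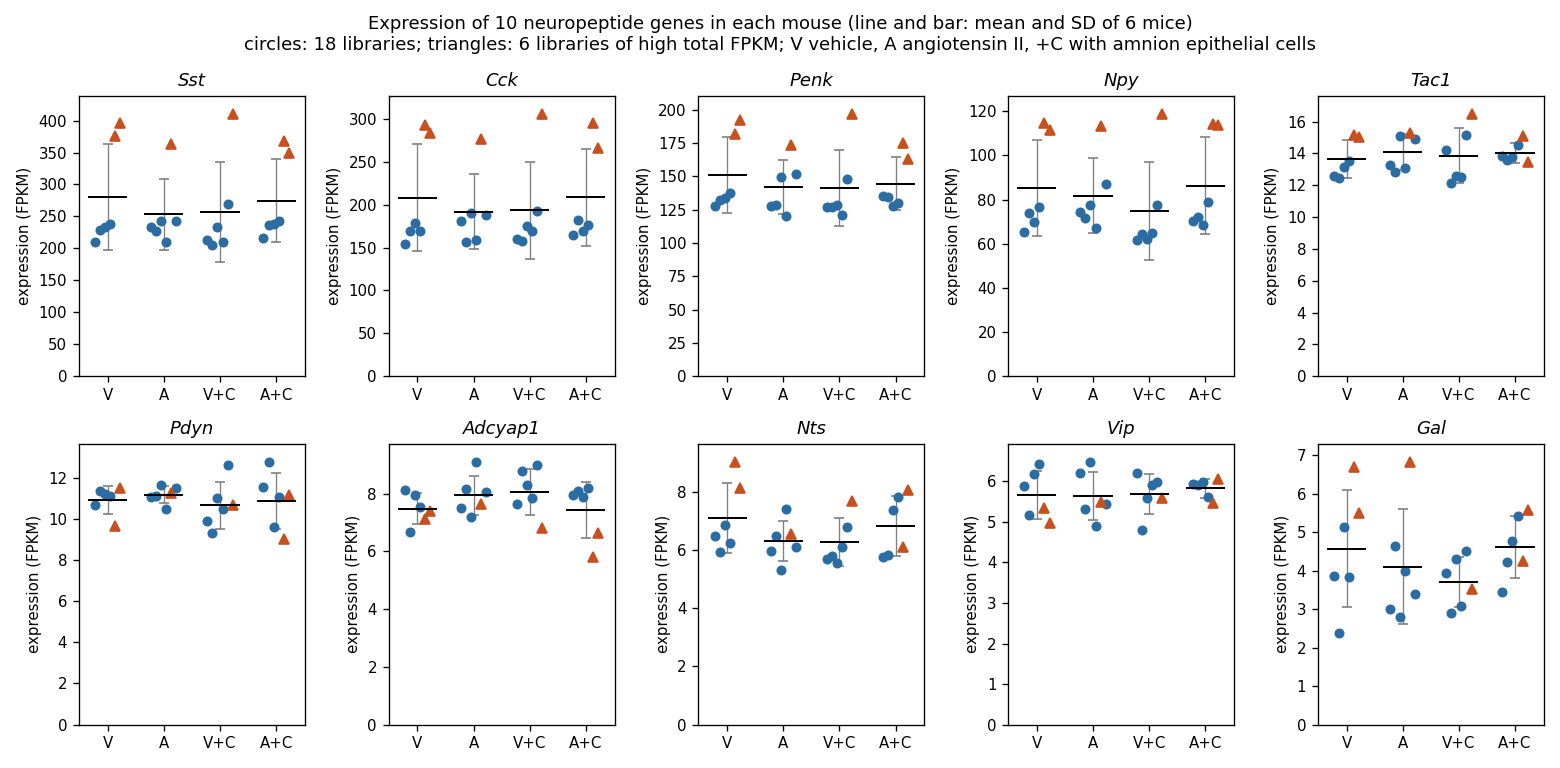
Expression in FPKM (vertical axes, from 0) of each peptide gene in every mouse of the 4 groups (V vehicle, A angiotensin II, +C with amnion epithelial cells), with horizontal lines at the means and grey bars for the SD of 6 mice. Circles are the 18 libraries and triangles the 6 of high total FPKM, which lie above all circles for Sst, Cck, Penk and Npy in each group.

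The second comparison asked whether amnion epithelial cells altered the genes in mice infused with angiotensin II. Here too 0 of 10 passed the adjusted threshold (0% of all genes) and 0 of 10 the unadjusted one (2.54% of all genes). Differences between angiotensin II + cells and angiotensin II ran from -0.10 (Adcyap1) to 0.21 (Gal), with 8 of the 10 above 0 and a median of 0.06, where the median of all genes was -0.02. Once the library-set term was added, 3 of the 10 were above 0 and the median was -0.02, so the direction of the list depended on that term. In that fit 0 of 10 passed the adjusted (0% of all genes) and 0 of 10 the unadjusted threshold (3.9% of all genes).
Gal, which counts the fewest reads, showed the widest limits. It measured 2.80 to 6.81 FPKM with angiotensin II (median 3.69) and 3.44 to 5.58 FPKM with angiotensin II + cells (median 4.50). Although 5 of 6 mice given cells were above the angiotensin II mean, the log2 difference of 0.21 had an interval of -0.23 to 0.66 (limma, unadjusted p = 0.33). Sst, by contrast, had limits of -0.13 to 0.12 with the library-set term, around a difference of -0.01. The intervals of Cck (-0.13 to 0.10), Tac1 (-0.15 to 0.09) and Penk (-0.17 to 0.07) in that fit were as narrow.

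The third comparison concerned amnion epithelial cells in mice infused with saline. None of the 10 genes passed the adjusted threshold (0% of all genes), and 0 of 10 passed the unadjusted one (2.41% of all genes). The differences between vehicle + cells and vehicle ran from -0.24 (Gal) to 0.10 (Adcyap1), with a median of -0.09, where that of all genes was 0.01. Adding the set of libraries brought them to between -0.17 and 0.07, again with 0 of 10 past the adjusted (0% of all genes) and 0 of 10 past the unadjusted threshold (3.54% of all genes).
Npy, released by interneurons and known for feeding and vasoconstriction, measured 65.3 to 115 FPKM with vehicle (median 75.3). With vehicle + cells it measured 61.6 to 119 FPKM (median 64.5). Of the 6 mice given cells, 1 lay above the vehicle mean, and that mouse was one of the 6 libraries of high total FPKM. Its log2 difference was -0.20 (interval -0.58 to 0.19), and -0.08 (interval -0.21 to 0.05) with the library-set term (limma, unadjusted p = 0.205).
Adcyap1, which encodes a peptide of stress circuits, measured 6.68 to 8.14 FPKM with vehicle (median 7.48). With vehicle + cells it measured 6.81 to 9.01 FPKM (median 8.08), and 5 of the 6 mice were above the vehicle mean. The difference was 0.10 in the fit of 4 groups (interval -0.07 to 0.28, limma, unadjusted p = 0.238). With the library-set term it was 0.07 (interval -0.07 to 0.21, limma, unadjusted p = 0.294). In the 18 libraries alone the difference was 0.13 (interval -0.01 to 0.28, limma, unadjusted p = 0.0697, adjusted p = 1). Exact permutation within those libraries, 5 mice against 4, yielded p = 0.143 (two-sided).

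The fourth comparison was of angiotensin II with vehicle among the mice given cells. The counts were 0 of 10 at the adjusted threshold (0% of all genes) and 0 of 10 at the unadjusted one (2.66% of all genes), and with the library-set term 0 of 10 (0% of all genes) and 0 of 10 (4.01% of all genes). Differences ran from -0.12 (Adcyap1) to 0.31 (Gal), with 9 of 10 above 0 and a median of 0.08 (-0.01 over all genes). In the fit with the library-set term, 6 of 10 were above 0 and the median was 0.02.
Gal gave the lowest exact p-value of any member in any comparison. Its levels were 2.90 to 4.51 FPKM with vehicle + cells (median 3.72) and 3.44 to 5.58 FPKM with angiotensin II + cells (median 4.50). The groups overlapped, although 5 of 6 mice with angiotensin II + cells were above the other group's mean. The log2 difference was 0.31 (standard error 0.21, limma, unadjusted p = 0.163, adjusted p = 1), and exact permutation yielded p = 0.0649 (two-sided), where the smallest that 6 against 6 mice allow is 0.0022. In the 18 libraries, the exact p for Gal was 0.222.
Npy measured 61.6 to 119 FPKM (median 64.5) with vehicle + cells and 68.4 to 114 FPKM (median 75.5) with angiotensin II + cells. Its difference was 0.21 (interval -0.17 to 0.60), and 0.10 (interval -0.03 to 0.23, limma, unadjusted p = 0.127) with the library-set term. That was the lowest p-value of the 10 genes in the fit with the library-set term. Adcyap1 measured 5.81 to 8.18 FPKM with angiotensin II + cells (median 7.93), and its 2 lowest values were from the 6 libraries.

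The interaction tested whether the effect of angiotensin II differed between mice with and without cells. It passed neither threshold for any of the 10 genes (0 of 10 adjusted, 0% of all genes, and 0 of 10 unadjusted, 2.54% of all genes), nor with the library-set term (0%, and 3.41% unadjusted, of all genes). Nts had the lowest p-value, with an interaction of 0.28 (interval -0.05 to 0.61, limma, unadjusted p = 0.0942, adjusted p = 0.931). Its difference with angiotensin II was -0.16 without cells and 0.12 with cells. With the library-set term the interaction of Nts was 0.20 (interval -0.08 to 0.48, limma, unadjusted p = 0.15). Gal had the largest value, 0.45, with an interval of -0.17 to 1.08.
The 4 comparisons share groups, so their values are not independent of each other. In no comparison did the groups of any of the 10 genes separate without overlap, where 0.0623% to 0.099% of all genes tested did.

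The intervals show which sizes of change these data leave room for. Over the 10 genes and 5 contrasts, 40 of 50 confidence intervals lay within 1.5-fold in either direction and 49 of 50 within 2-fold. The exception was the interaction of Gal. After the library-set term was added, 48 of 50 lay within 1.5-fold and 50 of 50 within 2-fold. The term narrowed the intervals of Cck 3.48 times, of Sst 3.23 times, of Npy 2.96 times and of Penk 2.28 times. It changed those of Pdyn (1.06 times) and Vip (1.09 times) little.

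**Figure D3:**
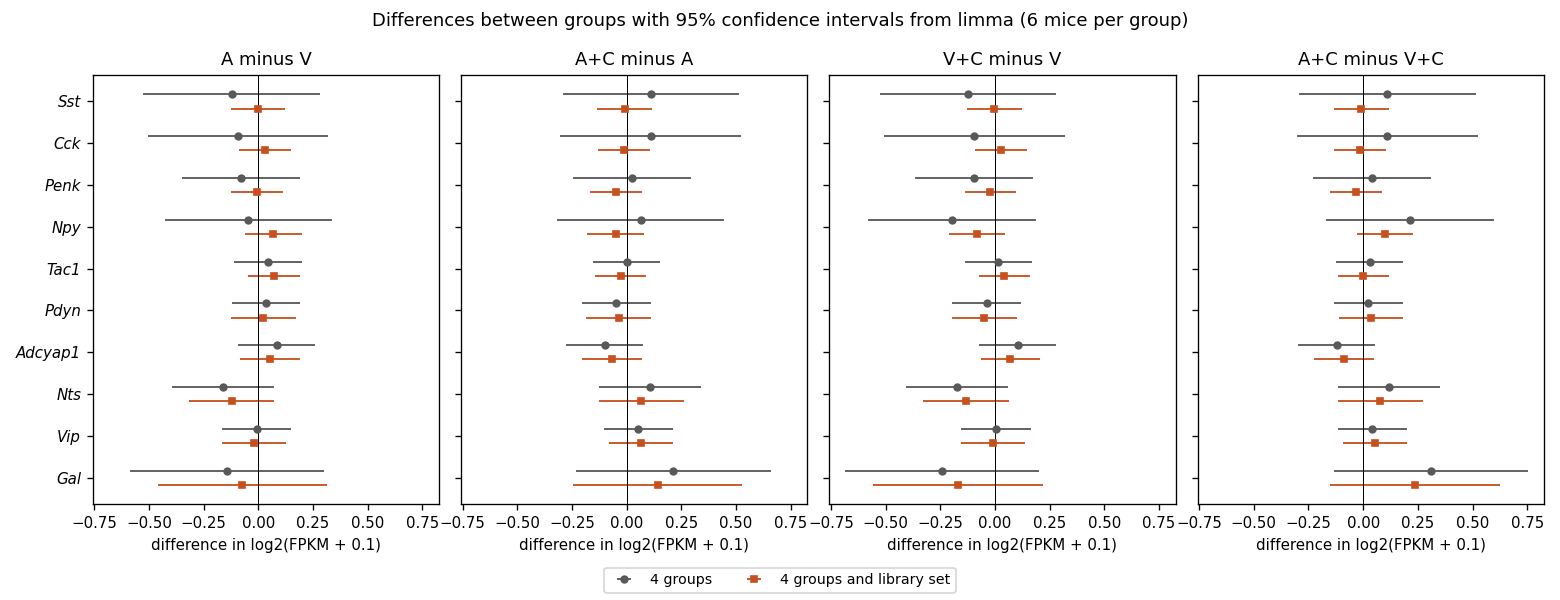
Differences between groups in log2(FPKM + 0.1) with 95% confidence intervals from limma, for each peptide gene and 4 comparisons (V vehicle, A angiotensin II, C amnion epithelial cells). Grey circles are from the fit of 4 groups and orange squares from the fit with the set of libraries added, and every interval includes 0.

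The variation from mouse to mouse depended on whether the 6 libraries were included. Over all 24 mice the coefficient of variation was 26.0% for Cck, 25.3% for Sst, 24.3% for Npy and 16.1% for Penk. In the 18 libraries the coefficient of variation was 6.82% for Penk, 6.98% for Cck, 6.98% for Tac1 and 7.16% for Sst. The others ran from 7.41% (Adcyap1) to 11.1% (Nts), apart from Gal at 22.0%. Counting error alone accounts for a coefficient of 1.52% in Cck and 1.77% in Sst, so their variation was 4.59 and 4.04 times that of counting. For Adcyap1, Nts and Gal it was 1.33 to 1.57 times.
Some of the genes varied together. Over the 18 libraries, with group means removed, 18 of the 45 pairs of genes had a Pearson correlation with a permutation p-value under 0.05 after Benjamini-Hochberg adjustment over the 45 pairs. The share among pairs of all genes was not computed, so this count is a description and not a trait shown to be particular to these peptides. Sst and Cck were the closest pair (r = 0.84, adjusted permutation p = 0.00045, rho = 0.85, adjusted permutation p = 0.0027), and without the 2 libraries farthest from the median r was 0.77. The median is that of the gene of the pair named first in the opening list, so the 2 libraries left out can differ between pairs. Npy and Penk (r = 0.80, rho = 0.66) and Tac1 and Penk (r = 0.79, rho = 0.76) came next, and Npy and Sst had r = 0.76 (rho = 0.73). These pairs had adjusted permutation p-values of 0.0024 or lower for r, and without the 2 farthest libraries their r were 0.58, 0.64 and 0.63.
A second cluster held Adcyap1, Nts and Gal, with r = 0.65 for Nts and Gal, 0.61 for Adcyap1 and Nts and 0.60 for Adcyap1 and Gal. Between Adcyap1 and the 4 most abundant genes r was -0.20 to -0.05. Without the 2 farthest libraries, 4 of the 18 pairs still passed (Sst with Cck, Cck with Penk, Cck with Pdyn and Tac1 with Penk), and Penk with Nts passed in addition, at a negative r of -0.66. The other 14 of the 18 did not pass on the 16 libraries left for each pair, with r between 0.36 (Npy with Pdyn) and 0.63 (Npy with Sst).
The abundant genes also followed the total FPKM of the library within the 18. Sst had r = 0.79 with it (adjusted permutation p = 0.0009, rho = 0.76), Cck 0.77 and Pdyn 0.72, and Penk, Tac1 and Npy 0.69, 0.66 and 0.64. These 6 passed at adjusted permutation p-values of 0.0071 or lower, over 10 genes, and Vip, Adcyap1, Nts and Gal did not (r = 0.14 to 0.33). How many of all genes follow total FPKM in this way was not computed. Without the 2 libraries farthest from the median, r was 0.65 for Sst, 0.64 for Cck, 0.58 for Pdyn, 0.49 for Npy, 0.45 for Penk and 0.41 for Tac1, so the relation of Penk and Tac1 with total FPKM was over 1.5 times weaker without them. With total FPKM removed as well as the group means, 0 of the 45 pairs passed. The lowest adjusted permutation p was then 0.0715, and r was 0.59 for Sst and Cck, 0.64 for Npy and Penk and 0.65 for Nts and Gal. The r of Nts and Gal was 0.65 both before and after the removal, and that of Adcyap1 and Nts was 0.61 and 0.60, so for these pairs the adjusted call was lost with little change in r. For Sst and Cck it was 0.84 and 0.59. All of these pairs share their libraries.

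**Figure D4:**
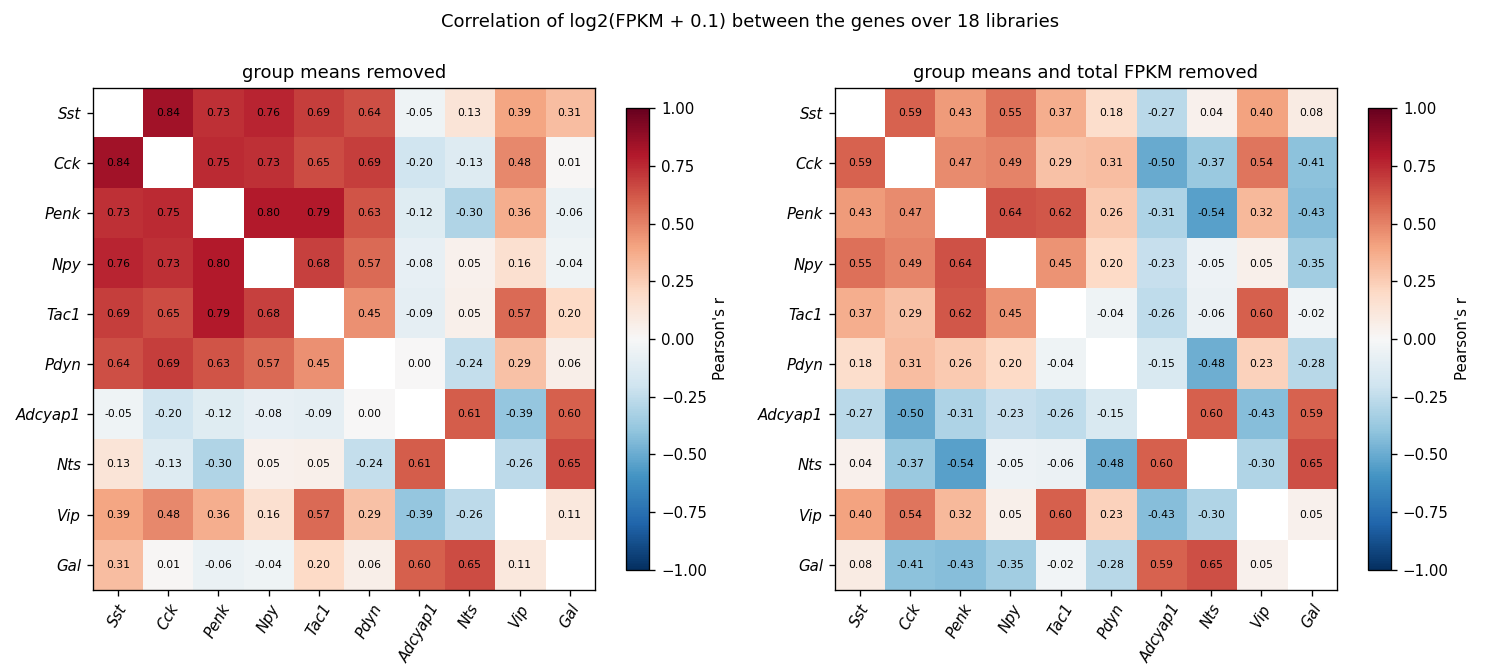
Pearson's r between log2(FPKM + 0.1) of each pair of peptide genes over 18 libraries, on a colour scale from -1 to 1, with group means removed (left) and with group means and total FPKM removed (right). The block of Sst, Cck, Penk, Npy, Tac1 and Pdyn reaches 0.84 on the left, and Sst with Cck is 0.59 on the right.

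Among all 13649 genes with a mean of at least 1 FPKM, those most like each peptide gene over the 18 libraries were named by the highest r, as a description. They were Psmc3 (r = 0.94), Ndufa7 and Fkbp8 for Sst, and Ppfia3 (r = 0.96), Efhd2 and Kcnip3 for Cck. For Penk they were Sf3b5 (r = 0.90), Ppp1r1b (r = 0.90), which encodes the striatal phosphoprotein DARPP-32, and Lrrc14. Pdyn was closest to Cdk5r2 (r = 0.90), Kcnj4 and Atp6v0d1, Npy to Gtpbp1 (r = 0.88), Rph3a and Dlgap4, and Tac1 to 4930432K21Rik (r = 0.88), Ensa and Rpl27. Adcyap1 was closest to Scg2 (r = 0.82), a granin of dense-core vesicles, then Vat1l and Dgkk. Vat1l was also among the 3 closest to Gal (r = 0.84), after Tradd (r = 0.86) and before Ndufa9. Vip was closest to Snd1 (r = 0.80), Gpaa1 and Adamtsl5, and Nts to the mitochondrial transfer RNA mt-Tn (r = 0.82), Thoc1 and Srp68.

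The receptors of the 10 peptides were followed as a list of 24 genes. By level, the highest were Ntsr2, a neurotensin receptor of astrocytes, at 52.3 FPKM, Adcyap1r1, the PACAP receptor, at 30.8 FPKM, and Cckbr, the cholecystokinin receptor of the brain, at 15.1 FPKM. In the fit of 4 groups, 0 of 24 passed the unadjusted threshold in each of the 5 contrasts, against 2.21% to 2.66% of all genes. The median differences were 0.08 for angiotensin II against vehicle, -0.06 for cells with angiotensin II, 0.08 for cells with vehicle and -0.03 for angiotensin II among mice given cells. With the library-set term, 1 of 24 passed the unadjusted threshold in the first of these, Cckar, a second cholecystokinin receptor at a mean of 0.296 FPKM (0.40, interval 0.01 to 0.80, limma, unadjusted p = 0.0472, adjusted p = 1), where 3.46% of all genes did, and none in the other 4 contrasts.
Between the sets of libraries the somatostatin receptors did not move together, and they are singled out here after their values were seen. Sstr4 measured 3.53 to 5.72 FPKM (99 to 184 reads) in the 18 libraries and 0.04 to 0.33 FPKM (1 to 12 reads) in the 6. Sstr1 measured 3.11 to 5.57 FPKM (at most 222 reads) in the 18 and 0.11 to 0.73 FPKM (4 to 36 reads) in the 6. The sets did not overlap for either gene, and the log2 differences were -3.90 and -3.11. Sstr2, Sstr3 and Sstr5 differed by 0.20, 0.28 and 0.22, while Sst itself was 0.72 higher in the 6 libraries. In GENCODE M21, Sstr4 has 1 transcript of 1 exon, and each of the other 4 receptor genes has transcripts of 2 to 3 exons. Of all 24 receptor genes, 8 were higher in the 6 libraries, with a median of -0.31, and the delta opioid receptor gene Oprd1, on which enkephalins act, was lower by -1.32.

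**Figure D5:**
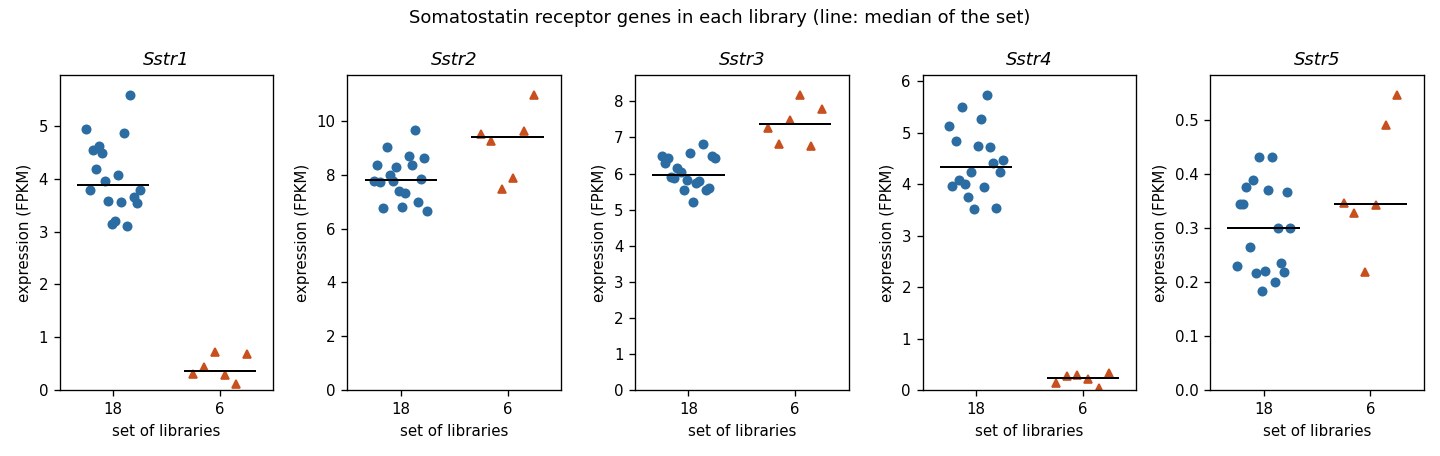
Expression in FPKM (vertical axes, from 0) of the 5 somatostatin receptor genes in every library, for the 18 libraries (circles) and the 6 of high total FPKM (triangles), with lines at the medians. Sstr1 and Sstr4 are near 0 in all 6 libraries, at most 0.73 and 0.33 FPKM, and at least 3.11 and 3.53 FPKM in all 18.

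The genes that process and store neuropeptides formed a list of 13. The most abundant was Cpe, carboxypeptidase E, which trims the precursors, at 637 FPKM, followed by Pcsk1n, an inhibitor of the convertase PC1/3, at 418 FPKM. In both fits, 0 of 13 passed the unadjusted threshold in each of the 5 contrasts. Of all genes, 2.21% to 2.66% passed it by contrast in the fit of 4 groups, and 3.41% to 4.01% with the library-set term. The medians of the 13 lay between -0.003 and 0.02. Of the convertases, Pcsk2 was at 28.5 FPKM and Pcsk1 at 5.10 FPKM. Between the sets of libraries 5 of 13 were higher in the 6, among them Pcsk1n (0.77), Vgf (0.57) and Chga (0.50), and Cadps2 (-0.78) and Pam (-0.76) were the lowest.
Another 8 neuropeptide genes gave a comparison with the list. In the fit of 4 groups, Crh, which encodes corticotropin-releasing hormone, was the 1 of 8 past the unadjusted threshold, in angiotensin II + cells against vehicle + cells (0.29, interval 0.05 to 0.53, limma, unadjusted p = 0.0204, adjusted p = 1). Of all genes, 2.66% passed that threshold in this contrast, and the 8 were tested in 5 contrasts. With the library-set term its difference was 0.25 (interval 0.05 to 0.46, limma, unadjusted p = 0.0189). In that fit Nmb, neuromedin B, was lower with angiotensin II + cells than with angiotensin II, by -0.44 (limma, unadjusted p = 0.0387, adjusted p = 1). The most abundant of the 8 was Cartpt, at 12.4 FPKM. All 8 were higher in the 6 libraries than in the 18, by 0.22 to 0.67, and their median length was 1298.5 bases.

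The neuron classes that make these peptides were checked by marker lists, all of whose genes were found. The 8 genes of GABAergic interneurons, led by Pvalb, summed to 367 to 433 FPKM in the 18 libraries and 481 to 568 FPKM in the 6. The 8 genes of cortical excitatory neurons, led by Slc17a7, summed to 233 to 286 FPKM and 330 to 391 FPKM, and the 9 of striatal projection neurons, led by Ppp1r1b, to 184 to 232 FPKM and 238 to 303 FPKM. None of these lists had a gene past the adjusted threshold in any contrast. At the unadjusted threshold, the fit of 4 groups held 1 of the 25 genes, Gpr6, a receptor of indirect pathway neurons, which was lower in angiotensin II + cells than in vehicle + cells (-0.18, limma, unadjusted p = 0.0415). The share of all genes was 2.21% to 2.66% by contrast, and 3.41% to 4.01% with the library-set term. In the fit with the library-set term Gpr6 differed by -0.21 there, and Drd2 (-0.19) and Gpr6 (-0.17) were lower with angiotensin II + cells than with angiotensin II, and Pde10a (-0.16) with vehicle + cells than with vehicle. These had adjusted p-values of 1 when rounded to 2 decimals (limma). Whether the peptide levels followed these classes was not tested.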

How the data were processed

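The authors deposited 1 table of FPKM values for 24 brain RNA libraries (poly-A selected, HiSeq platform). The submitters' processing notes name GRCm38 (mm10) and DESeq 1.10.1. The aligner, the counting program, strand use and the annotation release are not given in the sources used here. Samples were grouped by their labelled treatment. Fragments were recovered from the FPKM steps (100% whole within 0.01) and used for depth and for an alternative test. Depth sets precision, and counting error covers counting only.

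Genes above 0 in at least 6 of 24 mice (27286) were tested with limma 3.58.1 in R 4.3.3 on log2(FPKM + 0.1), 4 groups in 1 fit, eBayes with a trend, two-sided, with Benjamini-Hochberg adjustment over all tested genes. The threshold was 0.05. The fit was tested on simulated data. Single genes were also compared with two-sided exact permutation tests, and correlations with 100000 permutations. Tables and plots used Python 3.11.15, pandas 2.3.3, numpy 2.4.6, scipy 1.17.1 and matplotlib 3.10.9. The authors' DESeq was not rerun.

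The genes, the pathway and marker lists (124 genes in all) and the fits with library sets were chosen with earlier results of these data known. Outside the 10 peptide genes, those named are the most abundant of a list, those past the unadjusted threshold, the 3 closest to each peptide gene, and others singled out after their values were seen: Pcsk1n, Pcsk1, Pcsk2, Vgf, Chga, Cadps2, Pam, Adcyap1r1, Cckbr, Oprd1 and the somatostatin receptors. Alternatives were the pseudocount (1 or 0.01), filters, rescaling, voom on recovered reads, array weights, the compared groups alone, the replicate block and each mouse left out. No source says whether each library comes from a separate litter or cage, so p-values measure the spread between these mice. The result of 1 marker gene is not reported here.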

Additional observations from a re-analysis of the deposited data

Results flagged for a closer look

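In 6 of the 40 sets of 6 mice (10 genes in 4 groups), the highest mouse stood apart from the others, measured as its gap to the next mouse over the whole range of the group. The rule is set to flag about 1 in 20 groups of independent values from 1 population. These groups mix the 2 sets of libraries and the genes share their mice, so the 6 flags are a description and are not measured against that rate. All 6 belong to 2 libraries of high total FPKM, each the one such library of its group. In vehicle + amnion epithelial cells replicate 6, the gap was 0.725 of the range for Npy (119 FPKM), 0.685 for Sst (410 FPKM), 0.762 for Cck (306 FPKM) and 0.645 for Penk (197 FPKM). In angiotensin II replicate 5, it was 0.787 for Sst (364 FPKM) and 0.717 for Cck (277 FPKM). No mouse stood apart in this way for the other 6 genes.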

How the results depend on the processing

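Of 203 counts of peptide genes past the unadjusted threshold under an alternative, 190 were 0, as in the fit of 4 groups, and no gene passed the adjusted threshold in any (lowest adjusted p = 0.619, limma). Of 2030 single differences, 14 passed the unadjusted threshold, all of Npy, Gal, Adcyap1 or Nts, and the sign differed from that of the fit of 4 groups in 345. Of all genes, 2.21% to 2.66% passed that threshold by contrast in the fit of 4 groups, and 3.41% to 4.01% with the library-set term. The shares under the other alternatives are not given here, so the counts below are a description. The count was 1 for angiotensin II + cells against vehicle + cells with the compared groups alone (Gal, 0.31). Leaving out 1 mouse gave counts of 0 to 1 for vehicle + cells against vehicle (1 without vehicle replicate 2, Gal -0.41), 0 to 1 for angiotensin II + cells against vehicle + cells (1 without vehicle + cells replicate 6, Npy 0.35) and 0 to 2 for the interaction (1 without vehicle replicate 2 or without angiotensin II replicate 5, Gal 0.62 and 0.61, and 2 without vehicle + cells replicate 6, Adcyap1 -0.25 and Nts 0.34). With the library-set term, leaving out vehicle + cells replicate 5 or 6 gave 0 to 1 for angiotensin II + cells against vehicle + cells (Npy 0.14 in both). Pairs of genes with correlated levels numbered 18 of 45, 15 with all 24 libraries, 5 without the 2 farthest libraries (4 of them among the 18) and 0 with total FPKM removed, an alternative chosen after seeing the data, as were the fits that join the library-set term with another change and the exact tests within the 18 libraries. The cause was not tested.

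The replicate numbers were not taken to pair the mice. Same-numbered mice correlated at -0.09 to 0.53 in their deviations and not all over 0.1, and a mouse correlated best with its own number in 7 of 24 cases. All 6 libraries of high total FPKM had replicate number 5 or 6, so the number follows the library sets in part. The correlations of 0.47 to 0.53 were between same-numbered libraries that were both of that set. With the replicate block the count was 1 each, in every case Npy, for vehicle + cells against vehicle (-0.20), angiotensin II + cells against vehicle + cells (0.21) and the interaction (0.26). With the library-set term and the block together it was 1 for the first (-0.12) and 1 for the second (0.14). Depth limits Gal most, at 34 to 100 reads per mouse.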

Other observations

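The endothelial gene Pecam1, from a list of 3, was higher in angiotensin II mice that received cells than in vehicle mice that received cells (0.18 on the log2 scale, limma, unadjusted p = 0.0346, adjusted p = 1), and 0.19 with the library-set term. Of all genes, 2.66% passed the unadjusted threshold in that contrast in the fit of 4 groups. With that term Agrp, a hypothalamic peptide that drives feeding, was lower in vehicle mice that received cells than in those that did not (-0.54, limma, unadjusted p = 0.033). In the 6 libraries of high total FPKM, the 3 erythroid genes summed to 110 to 177 FPKM, and in the 18 to 28.9 to 166 FPKM. The 4 choroid plexus genes, led by Ttr, summed to 837 to 1125 FPKM in the 6 and 355 to 774 FPKM in the 18, a sum made mostly by Ttr (mean 664 FPKM), and 2 of the 4 were higher in the 6. The summed pituitary genes ran from 0.855 to 14.3 FPKM in the 6 libraries, and up to 1235 FPKM in the 18, in angiotensin II replicate 4.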
